A study of Mus musculus with 12 samples.

Results

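The 4 libraries titled AD_B6 were set against the 8 libraries titled SJL_B6 and AD_TG, pooled, 4 of 12 libraries in all. Cells sorted with magnetic beads as meningeal lymphatic endothelium, from mice aged 20 weeks, were profiled by QuantSeq, a kit that reads the ends of transcripts. The series title concerns DSCR1, the protein of the gene Rcan1, and drainage of the meninges in Alzheimer's disease. The labels give tissue Meninge and strain C57BL/6 for all 12 libraries and do not spell out SJL, B6, AD or TG, nor any allele, transgene, promoter or agent. Cells came from 3 to 4 mice per strain, and it is not stated that the 4 libraries of a group are separate animals, so p-values measure the spread between these libraries only, which may be technical.

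AD_B6 shares the letters B6 with SJL_B6 and the letters AD with AD_TG. A gene at which AD_B6 lay apart while the other 2 groups were alike therefore goes with the AD_B6 title as a whole, and the factors behind that title cannot be told apart. "Apart" here means that all 4 AD_B6 values lay above, or all below, the 8 other values. The means of SJL_B6 and AD_TG also had to differ by less than 1 on the log2 scale. The side with the higher values had to be detected in all its libraries, by the limit given below. This rule is a description, not a test. All levels are the deposited log2 values, and all differences are AD_B6 minus the mean of SJL_B6 and AD_TG on that scale.

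Lymphatic endothelium of the meninges lines the vessels that carry fluid, solutes and immune cells from the borders of the brain to the lymph nodes of the neck. Prox1 is its master transcription factor, Flt4 encodes its VEGF-C receptor and Lyve1 a hyaluronan receptor. DSCR1 binds and restrains calcineurin, the phosphatase that sends NFAT transcription factors to the nucleus in response to VEGF. Border macrophages lie beside these vessels, share Lyve1 with them and carry much of the MHC class II of the tissue.

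The label of the cells was only partly borne out by its markers. Prox1 was detected in 0 of 4 AD_B6 libraries and 2 of 8 others. A gene was called detected in a library at a linear value, 2 to the power of the deposited value minus 1, of 0.3 or more. Flt4 was detected in 1 AD_B6 library, at 7.33, and in 5 of the 8 others. The 16 lymphatic identity genes summed to 0.0535 to 0.138% of the linear total in AD_B6 and 0.0564 to 0.117% in the others, whereas 16 border macrophage genes summed to 0.266 to 0.647% and 0.376 to 0.785%. In a bulk sample, fewer cells of a type and less RNA per cell cannot be told apart.

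AD_B6 libraries held fewer detected genes. AD_B6 1 to 4 had 11449, 10520, 8748 and 10438 genes, and the 8 others ran from 10860 to 12217 with a median of 11509.5. AD_B6 3 was the lowest of all 12, AD_B6 2 and 4 also lay below every other library, and AD_B6 1 lay inside their range. The group means were 10288.8 ± 1124.85 (SD, n = 4) and 11483.5 ± 470.075 (SD, n = 8), a difference of -1194.75 genes. The exact two-sided permutation test gave p = 0.0242, and 0.0727 after Benjamini-Hochberg adjustment over 9 library measures, so the difference did not pass. The smallest p this design allows is 0.00404. Without AD_B6 1 the difference was -1581.5 genes (exact permutation p = 0.0121, adjusted p = 0.0273), and without AD_B6 3 it was -681.167 (exact permutation p = 0.0727, adjusted p = 0.218).

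Depth did not separate the groups in the same way. The reads estimated from the step between low values ran from 5523588 to 8906462 for AD_B6, against 4070787 to 9264872 for the others (exact permutation p = 0.788, also after adjustment). AD_B6 3 had the fewest detected genes and the largest estimate of its group. When every library was thinned to 4070787 reads, the difference in detected genes was -1187.5 (exact permutation p = 0.0364, adjusted p = 0.0818). The median level of detected genes was 7.90, 8.01, 8.37 and 8.05 in AD_B6 1 to 4 and 7.73 to 7.98 in the others, a difference of 0.23 (exact permutation p = 0.0162, adjusted p = 0.0727). Thus AD_B6 libraries listed fewer genes, and those listed stood at a slightly higher median level, with neither difference past the adjusted threshold.

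**Figure D1:**
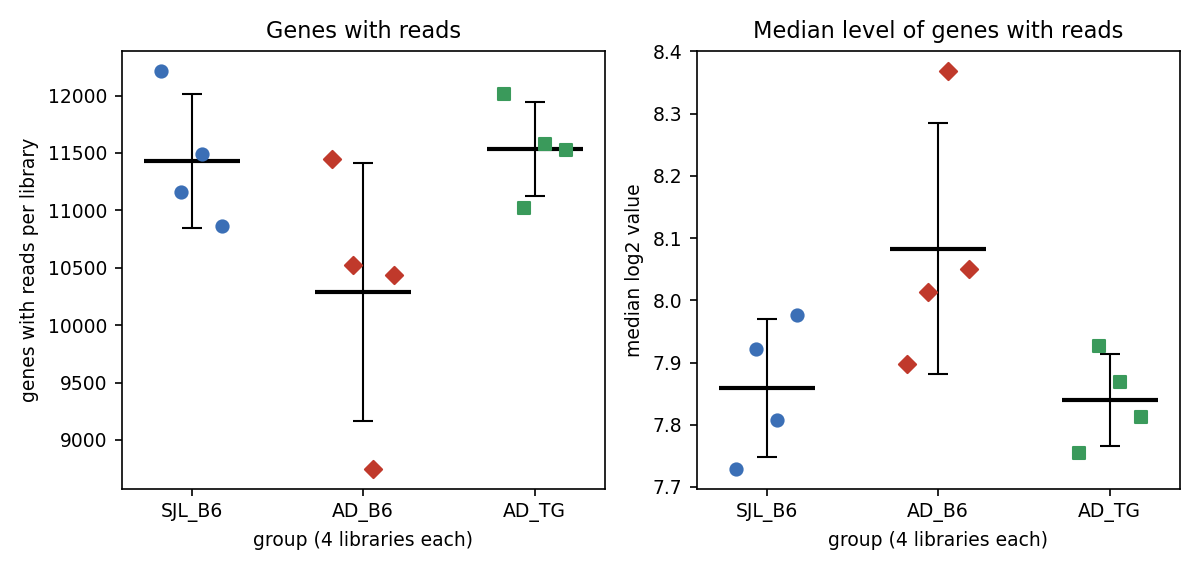
Genes with reads per library (left) and median deposited log2 value of those genes (right) for the 12 libraries by group; points are libraries, the wide bar is the mean and the whiskers are 1 SD (n = 4). AD_B6 3 lies lowest on the left, at 8748 genes, and highest on the right, at 8.37.

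Many of the genes not detected in an AD_B6 library were held in common by the other libraries. Of 6504 genes detected in all 8 other libraries, AD_B6 1 to 4 lacked 3.41, 5.52, 14.5 and 6.86%. Counted in the same way, against the 8 libraries of the 2 groups it does not belong to, each SJL_B6 library lacked 1.89 to 3.23% of 5384 genes and each AD_TG library 1.27 to 2.42% of 5291 genes. Every AD_B6 library thus lacked a larger share of its set than any of the 8 others did, but the sets differ. The 5384 and 5291 genes had to be detected in all 4 AD_B6 libraries, including AD_B6 3, and the 6504 did not. The shares are therefore not on a like footing between groups. All 4 AD_B6 libraries held 76.1% of the 6504 genes, against 91.9% for SJL_B6 and 93.6% for AD_TG by the same count. The genes held were the same 4950 each time, so these percentages differ only by the size of the set. In AD_B6, 1199 of the 6504 genes were missing from 1 library, 299 from 2, 52 from 3 and 4 from all 4. These last 4 were Arid5b, Dgcr8, Klhl6 and R3hcc1l, and no gene was detected in all 4 AD_B6 libraries and in none of the 8 others.

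A listed 0 was not taken here as a measured absence, and the cause of such values was not tested. Psmb4 and Psmb7 encode core subunits of the proteasome, which every cell uses. Psmb4 stood at 10.68, 10.46, 0 and 10.60 in AD_B6 1 to 4 and from 9.68 to 11.69, with a median of 10.55, in the others. Psmb7 stood at 7.94, 7.61, 0 and 8.36 in AD_B6 and from 7.16 to 9.83, with a median of 8.80, in the others. Both were listed at 0 in AD_B6 3 alone, so no fold is given here against a library at 0. A difference that includes such a value depends on the offset of 1 in the log2 scale.

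Gene by gene, detection passed no test. Fisher's exact test on 12306 genes detected in 1 to 11 libraries called 0 after adjustment (0%), and at an unadjusted p under 0.05 it gave 80 genes (0.65%) detected less often in AD_B6 and 11 (0.0894%) more often. The smallest unadjusted p that 4 against 8 libraries allow, 0.00202, was reached by 4 genes, too few for any to pass adjustment over 12306. By direction alone, 7494 genes were detected in a smaller share of AD_B6 libraries, 3550 in a larger share and 1262 in the same share.

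The level of no gene passed the test either. Across 11955 genes limma gave 0 calls (0%), and the smallest adjusted p was 0.739. At an unadjusted p under 0.05 it gave 96 genes higher (0.803%) and 663 lower (5.55%) in AD_B6. The median 95% half-width of a difference was 3.34 over all genes, 1.46 over the 4941 tested genes detected in all 12 libraries, and 0.83 over 967 genes whose mean was at least 10. With a constant prior spread in place of one that follows the mean, limma called 10 genes, and the lowest adjusted p was 0.00013. Of these, 8 were lower (Anxa11, Arid5b, Dgcr8, Dpysl2, R3hcc1l, Rnf24, Sdccag8 and Tifa) and 2 higher (Ftx and Lad1) in AD_B6. Without AD_B6 1, limma called 1 gene, C5ar1, a receptor for complement C5a on myeloid cells. C5ar1 stood at 9.09, 0, 1.25 and 0.03 in AD_B6 1 to 4 and from 6.90 to 10.54, with a median of 9.06, in the others. AD_B6 1, the library left out, was the one inside the range of the others (difference without it -8.50, limma adjusted p = 0.0375).

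AD_B6 was apart at 48 of the 11955 genes (0.402%), 15 of them higher (0.125%) and 33 lower (0.276%). Without the demand that the other groups agree, its values did not overlap the others at 26 genes above (0.217%) and 42 below (0.351%). The same count for SJL_B6 against the rest gave 19 genes in either direction (0.159%), and for AD_TG against the rest 17 (0.142%). The means that had to agree did so more often here: SJL_B6 and AD_TG lay within 1 of each other at 6508 genes (54.4%), AD_TG and AD_B6 at 47.8%, and SJL_B6 and AD_B6 at 47.9%. Whether these counts differ between groups was not tested. The nearest values of the 2 sides were 0.006 to 0.532 apart at the 15 higher genes and 0.022 to 6.646 at the 33 lower ones. Adjusted limma p-values of the 48 ran from 0.739 to 0.761. On the agreement rule, Txndc5 (0.97 between the means of SJL_B6 and AD_TG) and Gtpbp6 (0.94) were just inside, and Anxa11 and Syne3 (both 1.10) just outside.

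Among the 15 higher genes, 13 were detected in all 12 libraries. P4hb, a protein disulphide isomerase and subunit of collagen prolyl 4-hydroxylase, stood at 10.64, 10.26, 10.32 and 10.97 in AD_B6 1 to 4. Its 8 other values ran from 8.80 to 10.19 with a median of 9.43, a difference of 1.04 (SE 0.44, limma adjusted p = 0.761). Txndc5, a related isomerase of the endoplasmic reticulum, stood at 8.89, 8.72, 9.47 and 8.71 against 4.60 to 8.18, median 7.93 (difference 1.50, SE 0.85). Lman1 carries glycoproteins from the endoplasmic reticulum towards the Golgi. It stood at 11.05, 11.54, 11.18 and 10.79 against 9.95 to 10.64, median 10.44 (difference 0.79, SE 0.35). The intervals of P4hb (0.12 to 1.95) and Lman1 (0.08 to 1.51) excluded 0 before adjustment over genes, and that of Txndc5 (-0.24 to 3.24) did not. These genes were chosen because all AD_B6 values lay above the 8 others, so intervals from the same values lend no support. Of the 48 genes apart, 40 had an unadjusted limma p under 0.05.

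Of 11 tested genes of the unfolded protein response, 4 were higher and 7 lower, with a median of -0.42 against -0.36 over all genes. Hspa5, the main chaperone of the compartment, stood at 12.58, 12.43, 12.53 and 13.92 in AD_B6 and from 12.67 to 14.05, median 13.41, in the others. Its difference was -0.54 (SE 0.27, limma adjusted p = 0.761), and -0.90 without AD_B6 4, which lay above its own group. Pdia4, another isomerase, differed by 1.02 (SE 0.72), with overlapping groups. Dnajb9, a co-chaperone, differed by 3.69 (SE 1.71), also with overlapping groups, and was listed at 0 in 1 other library. Its means were 4.31 in SJL_B6 and 5.81 in AD_TG.

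Fam102a, an oestrogen-responsive gene, had the largest difference of the 13. It stood at 9.22, 9.34, 8.95 and 9.13 in AD_B6, within a range narrower than 1, and from 0.76 to 8.74 with a median of 7.03 in the others. The difference was 3.07 (SE 1.38, 95% interval 0.23 to 5.91, limma adjusted p = 0.761), and the spread lay in the other groups, with SJL_B6 at 6.06 ± 3.75 and AD_TG at 6.12 ± 2.07 (SD, n = 4 each). Marf1, an RNA-binding regulator of germ cells, stood at 9.85, 9.92, 10.14 and 10.004 against 7.39 to 9.76, median 8.07 (difference 1.72, SE 0.64, limma adjusted p = 0.745). Hnrnpu, a nuclear RNA-binding scaffold, had the highest level of the 15, at 11.38, 11.47, 11.61 and 11.44. Its other values reached from 10.27 to 11.36, so that the groups were separated by 0.012 only (difference 0.58, SE 0.33).

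Ubqln2 carries ubiquitin-tagged proteins to the proteasome. It stood at 9.18, 10.37, 9.45 and 9.88 in AD_B6 against 7.16 to 9.11, median 8.26 (difference 1.42, SE 0.63, limma adjusted p = 0.761). The proteasome genes themselves numbered 37, of which 13 were higher and 24 lower, with a median of -0.21. The other 6 genes that were higher and detected throughout differed by 0.74 to 1.40. They were Pcca, a subunit of mitochondrial propionyl-CoA carboxylase (1.40), Strn4, of the striatin subunits of phosphatase PP2A (1.35), Dexi (1.30), Zcchc18 (1.13), Efr3a, which anchors a lipid kinase at the plasma membrane (0.80), and Slc5a6, a transporter of biotin and pantothenate (0.74).

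Mrs2 and Phf8 were higher and not detected everywhere. Mrs2, a magnesium channel of mitochondria, was detected in all 4 AD_B6 libraries at 6.39, 8.30, 6.50 and 8.25. It was detected in 4 of the 8 others, which ran from 0 to 6.25 with a median of 0.57 (difference 5.42, SE 1.97, limma adjusted p = 0.739). Phf8, a histone demethylase, stood at 8.82, 9.66, 9.20 and 9.66 and was listed at 0 in 1 other library, SJL_B6 4, the rest running up to 8.52 (difference 3.15, SE 1.43).

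Of the 33 lower genes, 13 were detected in all 12 libraries. Ubtf, the factor that opens ribosomal DNA to RNA polymerase I, stood at 8.01, 8.56, 0.75 and 8.28 in AD_B6 and from 8.79 to 9.92, median 9.47, in the others. Esf1, a nucleolar protein of ribosomal RNA processing, stood at 8.26, 6.28, 1.25 and 8.35 against 8.41 to 9.96, median 9.36. At both genes AD_B6 3 was far below its own group, and the differences of -3.06 (SE 1.04) for Ubtf and -3.19 (SE 1.02) for Esf1 (limma adjusted p = 0.739 for both) were -1.17 and -1.59 without that library. Rps10, a protein of the small ribosomal subunit, stood at 8.40, 8.79, 7.38 and 8.13 against 9.07 to 9.90, median 9.54 (difference -1.33, SE 0.55). Over the 82 tested cytosolic ribosomal protein genes, 36 were higher and 46 lower, with a median of -0.03.

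Rad21, a subunit of the cohesin ring that holds sister chromatids, stood at 8.42, 8.17, 5.38 and 8.42 in AD_B6 against 8.73 to 10.13, median 9.43 (difference -1.81, SE 0.67, limma adjusted p = 0.741). AD_B6 3 was again the lowest, and without it the difference was -1.07. Sarnp, an mRNA export factor, stood at 7.63, 4.40, 6.28 and 7.36 against 7.74 to 9.54 (difference -1.99, SE 0.90, and -1.32 without AD_B6 2). Baz2b, a bromodomain protein, differed by -1.26 (SE 0.48).

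Spg7 was lower in a narrow band in AD_B6. It encodes paraplegin, a protease of the inner mitochondrial membrane, and stood at 8.27, 8.44, 8.35 and 7.60 against 8.94 to 11.21, median 10.07. The groups were separated by 0.497, and the difference was -1.83 (SE 0.54, 95% interval -2.95 to -0.71, limma adjusted p = 0.739). Nrxn2, a neurexin known from synapses, stood at 9.40, 9.01, 4.89 and 4.69 against 9.49 to 10.62, median 10.06 (difference -3.13, SE 0.77, limma adjusted p = 0.739). AD_B6 3 and 4 were the low libraries. Gga1, a Golgi adaptor of clathrin coats (-1.62), Camk1d, a calcium-calmodulin kinase (-1.41, and -0.94 without AD_B6 2), and Scpep1, a serine carboxypeptidase (-0.90), were also apart and detected throughout, as was Gbp7, described with the interferon genes.

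**Figure D2:**
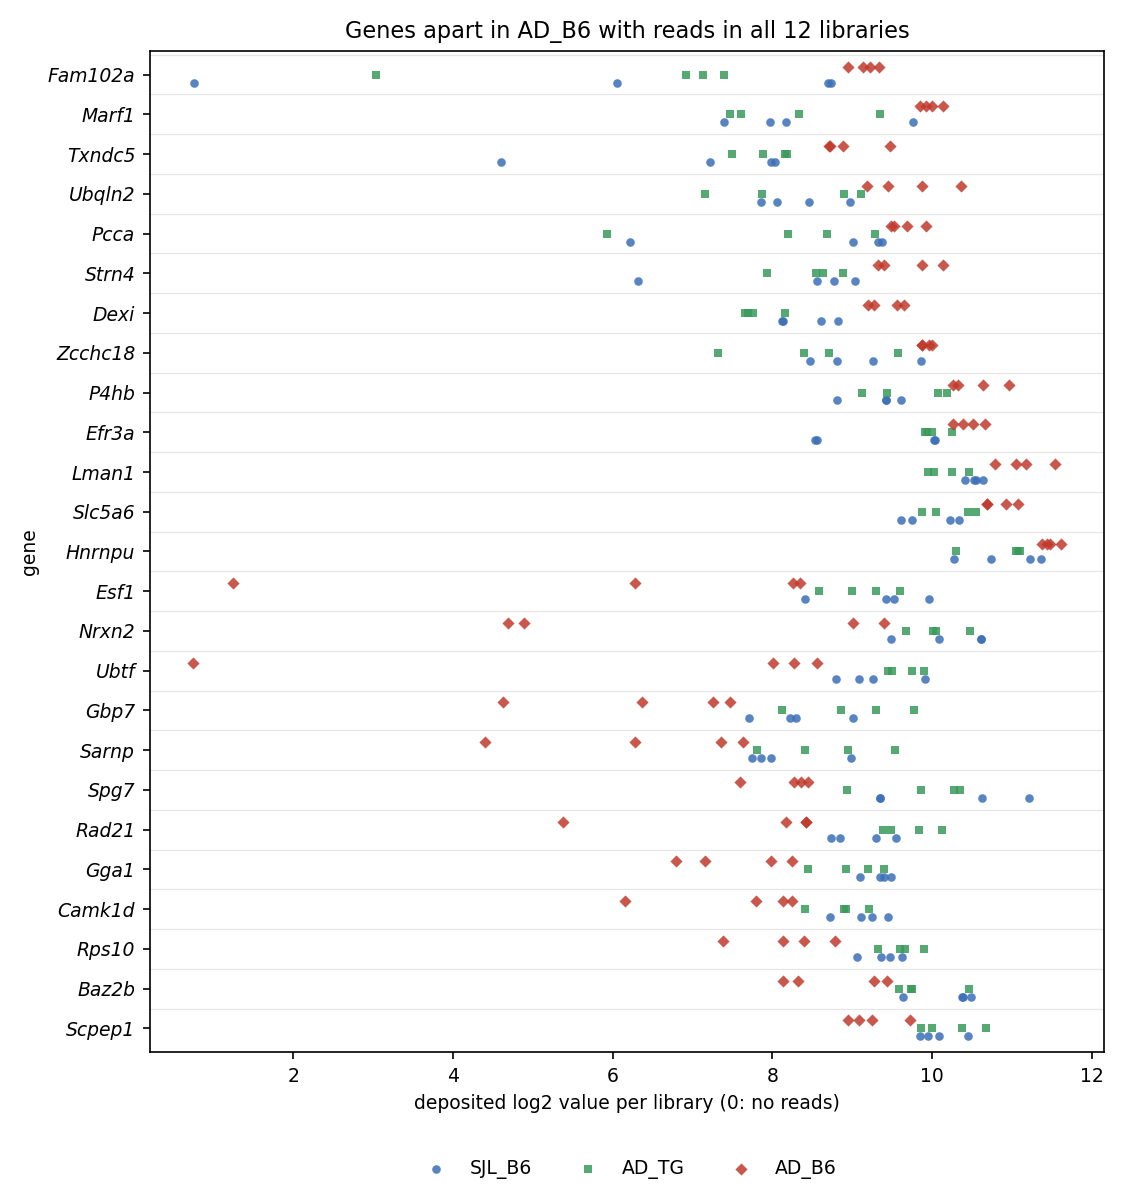
Deposited log2 value (horizontal axis) of 25 of the 26 genes at which AD_B6 was apart and that were detected in all 12 libraries; each point is 1 library, diamonds AD_B6, circles SJL_B6 and squares AD_TG. The diamonds lie right of all other points in the 13 upper genes and left of them in the 12 lower genes shown, and single AD_B6 libraries lie far left for Esf1 (1.25) and Ubtf (0.75).

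The other 20 lower genes, 0.285% of the 7014 genes detected in fewer than 12 libraries, were each undetected in 1 or more AD_B6 libraries. In the same class 2 genes were higher (0.0285%). All 20 were detected in the 8 others, as the rule demands, so only AD_B6 libraries could lack them. Among the 20, 8 were missing from 1 AD_B6 library, 7 from 2, 3 from 3 and 2 from all 4. Of the 33 lower genes, AD_B6 1 to 4 lacked 4, 9, 14 and 12. AD_B6 3 was the only library to lack a gene in 3 cases.

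R3hcc1l and Arid5b were listed at 0, 0, 0 and 0.03 in AD_B6 1 to 4, and 0.03 is the value at which AD_B6 4 lists genes without reads. R3hcc1l ran from 6.68 to 8.12 in the 8 others, with a median of 7.35, and Arid5b, a DNA-binding cofactor of a histone demethylase, from 5.80 to 8.62, with a median of 7.25. The gap to the nearest other value was 6.65 for R3hcc1l, the widest of the 48 genes, and 5.77 for Arid5b. Tifa, an adaptor of NF-kappa B signalling, stood at 0.95, 0, 0 and 0.03 against 5.13 to 8.97, median 7.82. Slamf7, a receptor of immune cells, stood at the same 4 values against 1.76 to 9.10, median 7.99. At 0.95 a value in AD_B6 1 is about 1 estimated read. Limma adjusted p = 0.739 for these 4 genes with the prior that follows the mean, and 0.00013 for R3hcc1l, 0.000857 for Arid5b and 0.00244 for Tifa with the constant prior. At R3hcc1l and Arid5b the SD in AD_B6 was 0.0155, since all 4 values were without reads. Their SEs were 1.78 and 1.81 with the first prior and 0.50 and 0.63 with the constant one. The small p-values thus reflect no spread between detected levels in AD_B6.

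Bmi1 and Sp110 were lower with reads in 2 AD_B6 libraries each. Bmi1, a core protein of Polycomb complex 1, stood at 0, 3.46, 0 and 4.90 against 4.94 to 8.75, median 7.97, so that 0.04 separated the groups. Sp110, an interferon-induced nuclear protein, stood at 0.95, 0, 4.59 and 0.03 against 5.08 to 8.55, median 6.89. Rnf24, a ring finger protein, stood at 1.93, 0, 0 and 1.22 against 5.10 to 8.36, and Homer2, a scaffold of calcium signalling, at 4.86, 4.00, 1.62 and 0.03 against 7.20 to 8.98. The differences were -5.54 (SE 1.67) for Bmi1, -5.52 (SE 1.83) for Sp110, -5.95 (SE 1.83) for Rnf24 and -5.42 (SE 1.44) for Homer2, each at a limma adjusted p of 0.739.

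The 12 further genes of this kind differed by -5.36 to -3.40. Those described here are Rps4l, 8430429K09Rik, Gtpbp6, Atxn3, Acads, Immp1l, Nme5, Tmem143, Ipo11, Fam65a and Atp6v0a2. Acads (an acyl-CoA dehydrogenase) and Immp1l (an inner membrane peptidase) serve mitochondria, Atxn3 is a deubiquitinase and Atp6v0a2 is a subunit of the proton pump of acidic organelles. Atp6v0a2 stood at 7.93, 7.54, 0 and 7.74 against 8.40 to 10.62, median 9.13. Its difference was -3.40 (SE 1.13), and -1.47 without AD_B6 3. Its 3 detected values also lay below the 8 others, as the rule for genes apart demands. Overlaps of annotated genes could blur some of the 48. Txndc5 overlaps Bmp6, Dexi Ciita, Hnrnpu Cox20, Gtpbp6 Plcxd1, Sp110 Sp140, Mrs2 Gpld1, Slc5a6 Atraid and Rnf24 Pank2 in RefSeq, and whether the counting used strand is not given in the sources used here. Rps10 and Rps4l have near-identical copies, so their levels are uncertain.

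**Figure D3:**
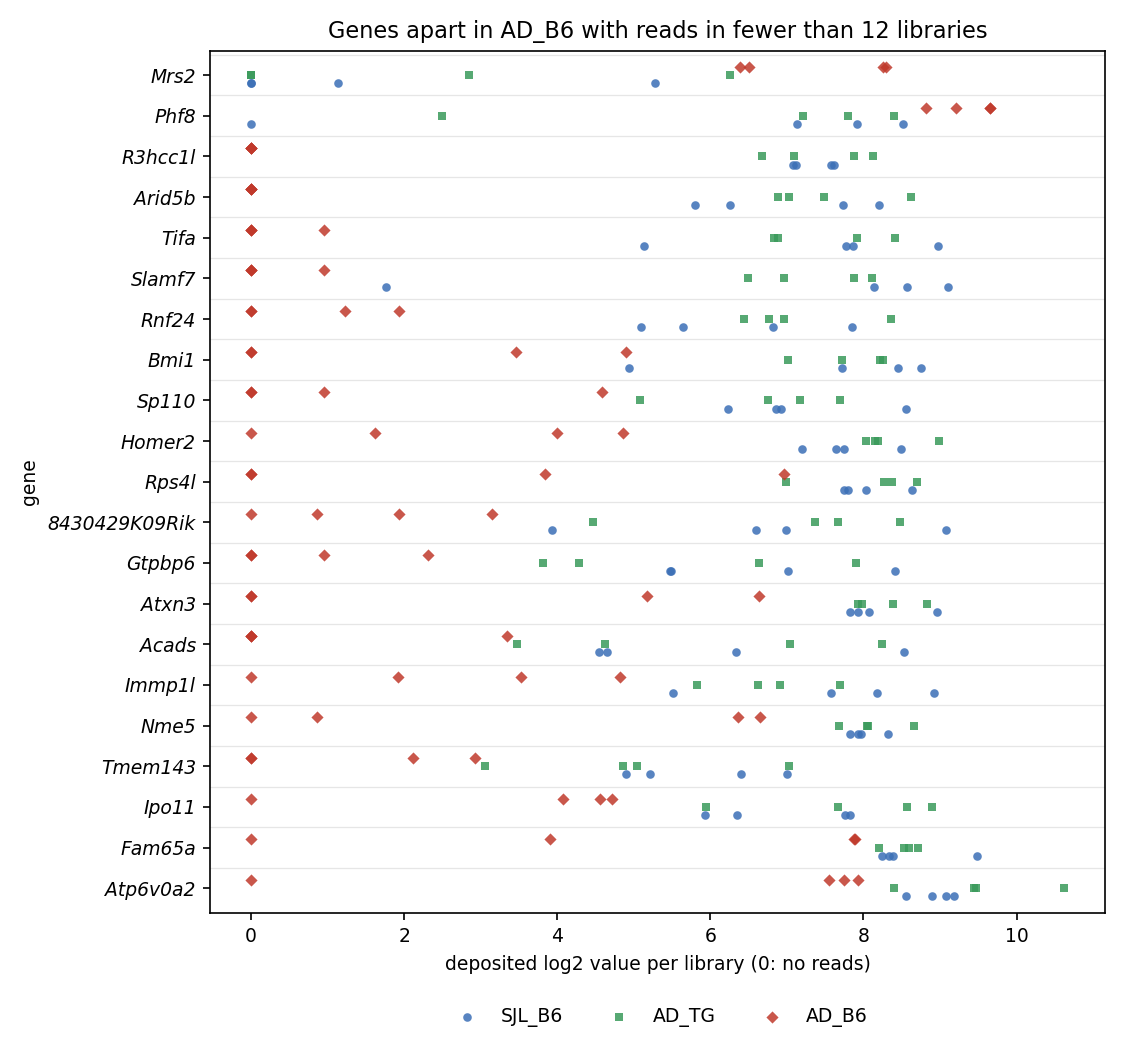
Deposited log2 value (horizontal axis, with 0 for no reads) of 21 of the 22 genes at which AD_B6 was apart and that were detected in fewer than 12 libraries; each point is 1 library, diamonds AD_B6, circles SJL_B6 and squares AD_TG. Mrs2 and Phf8 are higher in AD_B6, and in the 19 lower genes shown the diamonds gather at or near 0 for R3hcc1l and Arid5b and spread up to 7.93 for Atp6v0a2.

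The lower side of the comparison was larger among genes that some library did not detect. Over all 11955 genes the median difference was -0.36, with 61.5% of genes lower in AD_B6. Among the 4941 genes detected in all 12 libraries it was -0.06, with 53.4% lower, and among the other 7014 it was -0.97, with 67.1% lower. Where only libraries with reads entered the means, for the 10462 genes with at least 2 such AD_B6 libraries and 4 such others, the median was 0.02 with 48.9% lower. The same genes gave -0.25 and 59.3% lower when all values entered. In the classes by detection, the count of lower genes at an unadjusted p under 0.05 was 161 (3.26%) with detection in all 12 and 502 (7.16%) with less, against 35 (0.708%) and 61 (0.87%) higher. Even with detection everywhere, genes lower at that level outnumbered those higher.

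Genes were also grouped by their mean in the 8 others, the same libraries whose detection was then compared. A high mean there requires detection there, so lower shares in AD_B6 at the higher means follow in part from the grouping. The grouping was not repeated for another group. Within it, detection in AD_B6 was lower than in the others at every level. The gap was widest at means of 4 to 6, where 65.4% of AD_B6 values and 80.3% of the others were detected. Below a mean of 4 these shares were 51.3 and 54.6%, and for means of 6 to 8 they were 83.6 and 95.9%. For means of 8 to 10 these shares were 96.2 and 99.9%, and for means of 10 or more 99.8 and 100%. The filter on low values was not even: a gene passes with 4 of the 8 others alone but needs all 4 AD_B6 libraries to pass on AD_B6 alone. Without it, over 17256 genes, the median was -0.31, with 170 higher and 591 lower at an unadjusted p under 0.05. Leaving out AD_B6 3 brought the median to -0.14, and quantile normalization to -0.13.

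**Figure D4:**
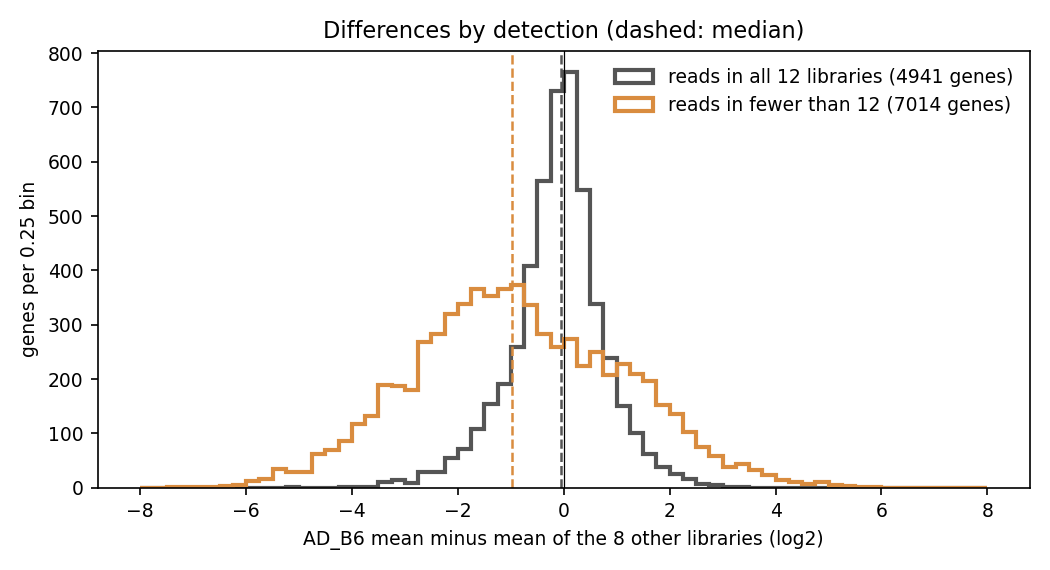
Number of genes (vertical axis, per bin of 0.25) by difference of AD_B6 from the mean of the 8 others on the log2 scale (horizontal axis), for 4941 genes detected in all 12 libraries and 7014 detected in fewer; dashed lines are medians. The first group centres at -0.06, the second at -0.97 with a long lower side.

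Immune genes of the tissue were among those lower in AD_B6, with no gene passing. All 16 border macrophage genes were detected in all 12 libraries, and 15 of them were lower, with a median of -0.49 against -0.06 over genes detected in all 12. Csf1r, the receptor that macrophages need to live, stood at 12.74, 11.69, 12.20 and 11.83 in AD_B6 against 12.29 to 13.24, median 12.49 (difference -0.52, SE 0.24, limma adjusted p = 0.761). C1qb, of the complement C1q complex, stood at 11.02, 9.80, 11.83 and 10.21 against 10.99 to 12.31, median 11.55 (difference -0.82, SE 0.36, and -0.52 without AD_B6 2). At Csf1r 3 AD_B6 values lay below all 8 others and AD_B6 1 lay above their median. At C1qb AD_B6 2 and 4 lay below all 8 others and AD_B6 3 lay above their median. All 7 tested MHC class II genes were lower, with a median of -0.54: Cd74, the invariant chain, stood at 12.64, 12.05, 12.60 and 12.10 against 12.21 to 14.04, median 12.95 (difference -0.70, SE 0.27, limma adjusted p = 0.752). H2-Aa differed by -0.48 (SE 0.21) and H2-Ab1 by -0.54 (SE 0.26). MHC class II genes summed to 0.407 to 0.714% of the linear total in AD_B6 and 0.548 to 1.69% in the others, beside the macrophage shares given above. Choroid plexus genes, from neighbouring tissue, summed to 0.383 to 11.2% in AD_B6 and 0.292 to 8.24% in the others. The part of cell makeup in these differences was not tested.

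Of 12 tested interferon genes, 3 were higher and 9 lower, with a median of -1.86, but the 3 detected in all 12 libraries had a median of 0.19. Members of the list were detected in 57.8% of AD_B6 values and 77.3% of others. Over all 11955 tested genes, a gene was detected on average in 3.14 of 4 AD_B6 libraries and 6.91 of 8 others. Oas1a, an antiviral synthetase, was listed at or near 0 in all 4 AD_B6 libraries and 2 of the 8 others. Gbp7, an interferon-induced GTPase outside the list, was detected everywhere and apart, at 6.37, 7.47, 4.63 and 7.25 against 7.71 to 9.77, median 8.58 (difference -2.23, SE 0.84, limma adjusted p = 0.751). Of 13 inflammatory and NF-kappa B genes, 4 were higher and 9 lower (median -0.92, and -0.62 over the 4 detected throughout). Nfkbia, the inhibitor that NF-kappa B itself induces, differed by -0.92 (SE 0.32, limma adjusted p = 0.739) with detection throughout.

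Chromatin, splicing and microRNA genes held some of the largest single differences, while their list medians ran from -0.23 to -0.13. In the Polycomb and chromatin list 13 of 31 tested genes were higher and 18 lower (median -0.23, and 0.03 over the 20 detected throughout). Bmi1 and Arid5b were its 2 genes apart, both lower, beside 33 lower genes apart of 11955 (0.276%) over all genes. The lists were chosen with earlier results of these data known, so this count is no support for a trait of the list. Kdm6a, a demethylase of the Polycomb mark, differed by -4.65 (SE 2.14) and was detected in 1 AD_B6 library and 7 of the others. In the microRNA processing list 5 of 12 were higher and 7 lower (median -0.22, and 0.20 over the 4 detected throughout). Dgcr8, partner of Drosha in the nucleus, was listed at 0, 0, 0 and 0.03 in AD_B6 against 4.80 to 9.26, median 8.10. It was not among the 48 because SJL_B6, at 8.59 ± 0.50, and AD_TG, at 6.27 ± 1.57 (SD, n = 4 each), disagreed. Of 24 splicing factors, 10 were higher and 14 lower (median -0.13). Hnrnpu, described above, was the 1 gene apart in this list, on the higher side, beside 15 higher genes apart of 11955 (0.125%). Rbm4 went the other way and was not apart, at a difference of -6.12 (SE 1.47, limma adjusted p = 0.739). It stood at 0.95, 6.99, 0 and 1.86 in AD_B6 1 to 4 against 5.98 to 9.997, median 8.76, in the others. Rbm4 lies over a predicted gene, Gm21992. Both were listed at the same values in AD_B6 1 to 4 and at differing values in some other libraries, such as 5.98 and 6.47 in AD_TG 4. How far the 2 genes share reads was not tested.

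Genes of the pathway named in the title were a mixed group. Rcan1 stood at 8.74, 9.55, 9.54 and 7.34 in AD_B6 and from 5.21 to 9.28, median 7.62, in the others, and the groups overlapped (difference 1.22, SE 0.90, limma adjusted p = 0.832). Of the 17 calcineurin and NFAT genes, 11 were higher and 6 lower, with a median of 0.36 against -0.36 over all genes. Over the 12 detected throughout the median was 0.26, against -0.06 over all genes detected in all 12 libraries. None passed. Nfatc4 ran the other way, at -5.77 (SE 2.11), and was detected in 1 AD_B6 library and 7 others. App, the source of amyloid, differed by 0.19 (SE 0.21, limma adjusted p = 0.889; 0.11 without AD_B6 2), and of 20 genes of amyloid processing and clearance 9 were higher and 11 lower (median -0.16).

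Endothelial and mural genes were low and thinly covered. Of 12 tested lymphatic genes 3 were higher and 9 lower, with a median of -0.52, and of -0.01 for the 5 detected in all 12 libraries. Lyve1 stood at 8.53, 8.80, 0 and 9.24 in AD_B6 against 7.47 to 10.39, median 8.46. Its difference of -1.90 (SE 1.26, limma adjusted p = 0.796) was 0.32 without AD_B6 3, so its sign hung on that library. Itga9, an integrin of lymphatic valves, stood at 0, 0, 4.92 and 0.03 against 3.35 to 8.54, median 7.07 (difference -5.44, SE 1.94). Podoplanin, Pdpn, differed by 0.13 (SE 0.60) and Pecam1 by 0.92 (SE 2.30), and the sign of both turned when single libraries were left out: Pdpn without SJL_B6 3 (-0.15) or AD_B6 1 (-0.10), and Pecam1 without AD_B6 3 (-0.64). Flt4 differed by -2.77 (SE 2.32, limma adjusted p = 0.860), and by -4.60 without AD_B6 1. Of 16 pan-endothelial genes 5 were higher and 11 lower (median -0.68), with Egfl7, a vessel growth factor, at -3.99 (SE 1.45), or -2.57 without AD_B6 2, where it is listed at 0. Of 7 mural genes 2 were higher and 5 lower (median -1.10), with Myh11, a smooth muscle myosin, at -5.77 (SE 2.04) and Notch3 at -5.03 (SE 1.93). Myh11 stood at 0, 0, 1.25 and 2.92 in AD_B6 1 to 4 and from 0 to 9.43, median 7.96, in the others. Notch3 stood at 0, 0, 0 and 8.19 against 3.47 to 9.70, median 7.195, so that AD_B6 4 lay above that median. At both genes the other groups disagreed, with SJL_B6 minus AD_TG at -2.305 for Myh11 and 1.85 for Notch3.

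Metabolic and neutrophil lists lay on the higher side. Of 16 glycolysis and hypoxia genes, 11 were higher and 5 lower, with a median of 0.27 that was the same to 2 decimals over the 11 detected throughout. Plod2, a collagen-modifying enzyme induced in hypoxia, differed by 4.21 (SE 1.80) and Pygl, of glycogen breakdown, by 2.94 (SE 1.21), and Hk2, a hexokinase, by -3.06 (SE 1.15), or -0.91 without AD_B6 3, where it is listed at 0. Of 10 neutrophil genes 6 were higher and 4 lower (median 1.11), with Ngp, a neutrophil granule protein, at 2.56 (SE 1.21), or 1.65 without SJL_B6 3. Their summed share ran from 0.0257 to 0.332% in AD_B6, and that of the others, from 0.0102 to 0.319%, overlapped it. Limma adjusted p-values were 0.745 for Hk2 and 0.761 for Plod2, Pygl and Ngp. At Plod2, Pygl and Ngp the other groups disagreed. Their means were 1.49, 4.44 and 5.53 in SJL_B6 and 6.30, 8.17 and 8.59 in AD_TG. The AD_TG values overlapped those of AD_B6 at each of these genes.

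The shares of lower genes in the large families stand beside 61.5% lower over all genes. Of 220 zinc finger Zfp genes tested, 75 were higher and 145 lower (median -0.64), and the 39 detected throughout had a median of -0.20. Kinesins numbered 24, 7 higher and 17 lower (median -0.85, and -0.01 over the 7 detected throughout), and mitochondrial ribosomal proteins 73, 24 higher and 49 lower (median -0.47, and -0.11 over the 33 detected throughout). The Nduf genes of complex I divided evenly, 21 higher and 22 lower (median -0.01, and 0.16 over the 34 detected throughout). No list held a gene that passed limma after adjustment over all genes.

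**Figure D5:**
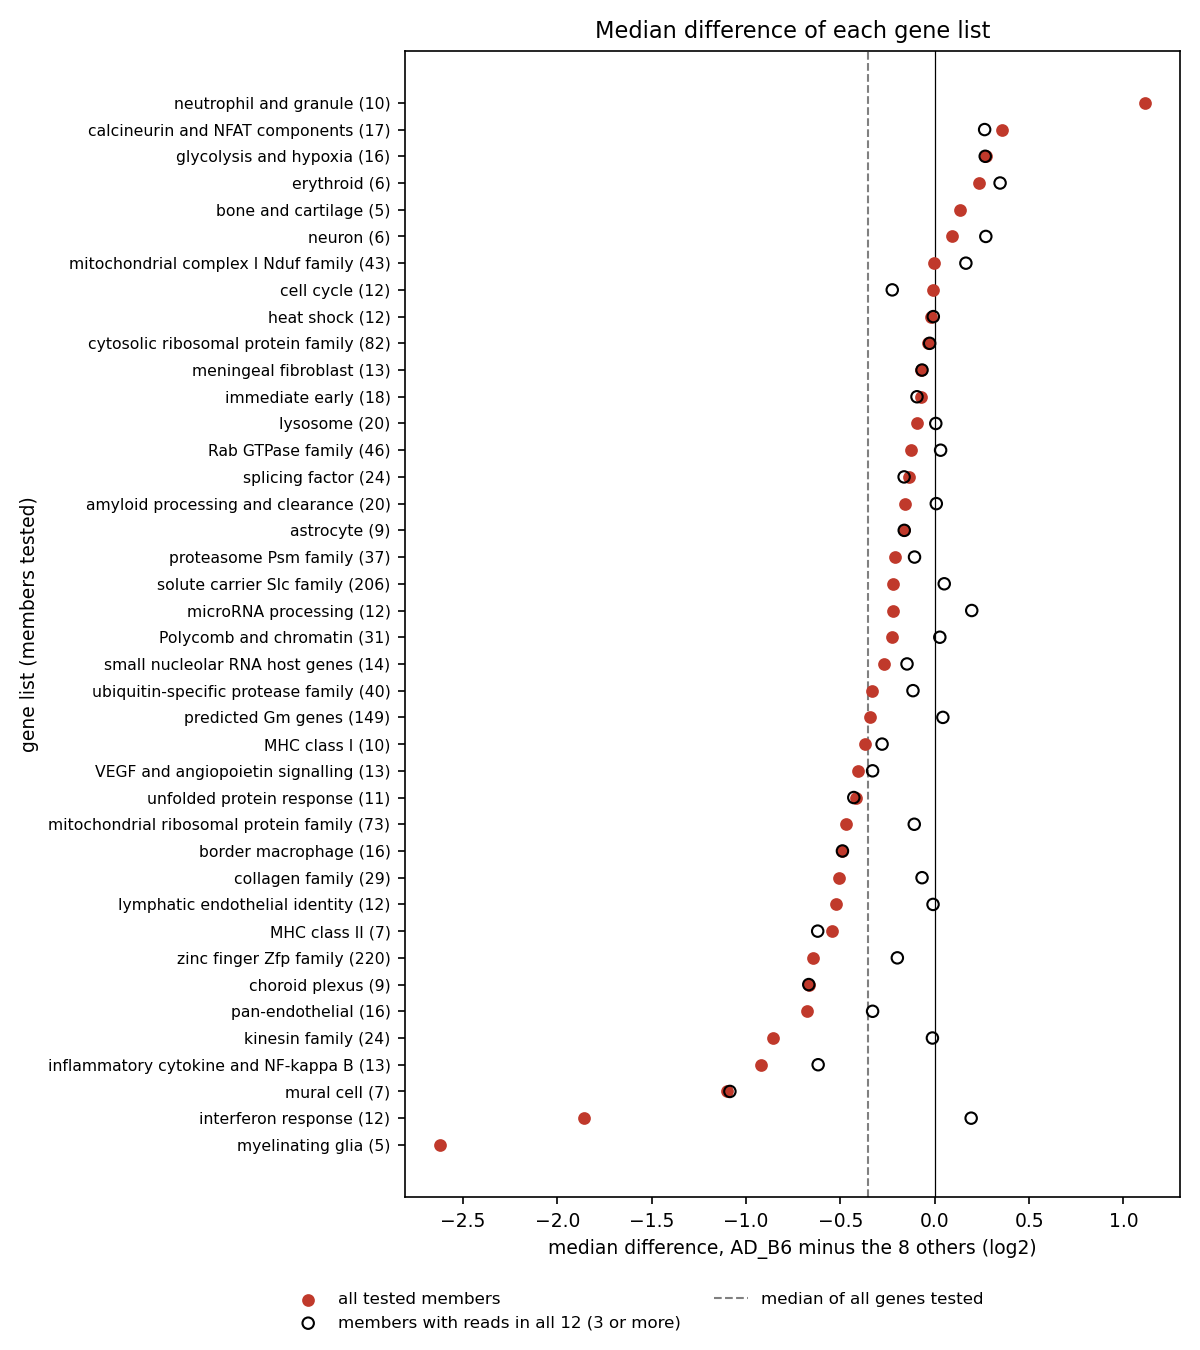
Median difference of AD_B6 from the 8 others on the log2 scale (horizontal axis) for each gene list with 5 or more tested members; filled points are all tested members, open points those detected in all 12 libraries where 3 or more are, and the dashed line is the median over all genes tested, -0.36. The interferon list stands at -1.86 (filled) and 0.19 (open), and border macrophage genes stand at -0.49 in both.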

How the data were processed

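The authors deposited 1 file per library with log2 values per gene symbol, log2(x + 1) of scaled amounts; the scaling is not given in the sources used here. The submitters' processing notes name Bowtie2, bedtools and hg19, a human build, whereas the symbols are of the mouse. No coordinates of that build were used, and overlaps of genes were taken from RefSeq positions. For 35 of 23238 symbols with repeated entries, 44 entries of lower mean were left out. Reads were estimated as the linear total divided by the step between low values. The 11955 genes reaching a linear 10 in 4 or more libraries entered limma 3.58.1 in R 4.3.3 (lmFit, eBayes with trend; 3 groups; AD_B6 minus the mean of the others; two-sided; Benjamini-Hochberg, 0.05). Single values per library had exact permutation tests (scipy 1.17.1), and detection per gene Fisher's exact test. The genes and the 44 lists were chosen with earlier results of these data known. The rule named up to 8 genes apart per direction and class of detection (by size of difference), genes called by a test, 7 fixed genes, and list members apart or at an unadjusted p under 0.05. The rest of the 48 genes apart and others, among them Hspa5, Pdia4, Klhl6, Syne3 and genes called only under an alternative, were named after their values were seen. Alternatives covered scaling, offset, filter, detection minimum, agreement limit, fit and single libraries. The fit was tested on simulated data. A few genes are not reported here.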

Additional observations from a re-analysis of the deposited data

Results flagged for a closer look

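Within each group of 4 libraries, a value was singled out when its gap to the nearest other passed Dixon's critical value for 4 samples. This marked 35 of 288 groups checked (12.2%). The usual chance rate of about 1 in 20 is no yardstick for this share. It holds for normally spread values, and many of the genes were chosen by their values. Undetected values were all set to the same lowest value. A group with only 1 detected library was therefore marked whatever that library's level.

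AD_B6 3 was marked as low at Ubtf (0.75), Rad21 (5.38), Lyve1 (0), Psmb4 (0), Psmb7 (0) and Atp6v0a2 (0), and as high at Itga9 (4.92), Nfatc4 (0.75) and Sdccag8 (3.76). AD_B6 1 was marked as high at Tifa (0.95), Slamf7 (0.95), Flt4 (7.33), Pygl (10.03) and C5ar1 (9.09). AD_B6 2 was marked as high at Acads (3.35) and Kdm6a (4.28). AD_B6 4 was marked as high at Notch3 (8.19) and Hspa5 (13.92) and as low at Ipo11 (0.031).

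In SJL_B6, library 1 stood apart at Pcca (6.22), Slamf7 (1.76), Notch3 (9.70), Fam65a (9.48) and Prox1 (8.38), library 3 at Ngp (0.07), and library 4 at Phf8 (0) and Baz2b (9.64). In AD_TG, library 3 stood apart at Fam102a (3.04), Hnrnpu (10.30), Dpysl2 (9.83) and the share of Ttr, a choroid plexus transcript (1.53% of the linear total), library 2 at Notch3 (3.47), Nfatc4 (0) and Snhg11 (10.27), and library 4 at Homer2 (8.98). The causes were not tested.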

How the results depend on the processing

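Limma called 10 genes with a constant prior spread and 1 without AD_B6 replicate 1, and the range over leaving out single libraries was 0 to 1; the cause was not tested. All other fits called 0, among them 2 groups (lowest adjusted p 0.596), array weights (0.947), quantile normalization (0.896) and a pseudocount of 10 (0.727). Same-numbered libraries did not deviate together (12 correlations from -0.0153 to 0.067), and with the replicate number as a block 0 genes were called (lowest adjusted p 0.719), with 94 higher and 716 lower at an unadjusted p under 0.05. Genes apart numbered 9 higher and 21 lower when SJL_B6 and AD_TG had to agree within 0.5, and 13 lower when detection in all 12 libraries was required. Leaving out single libraries gave 17 to 49 higher and 38 to 102 lower, since fewer values overlap less by construction. By the library left out, lower genes numbered 102, 83, 70 and 89 without AD_B6 replicate 1 to 4 and 53 without AD_TG replicate 2, and higher genes 26, 39, 49 and 49 without AD_B6 replicate 1 to 4. The median difference over all genes kept its sign, from -0.434 to -0.141 over single libraries left out, and the difference in detected genes ran from -1581.5 (adjusted p 0.0273, without AD_B6 replicate 1) to -681.167. Fisher's test called 0 genes under every setting run, but its smallest possible p is too large to pass adjustment here unless far more genes reach it, so this says nothing about stability. Over the alternatives run for 86 genes named and tested, a difference changed sign in 5 fits, all at Lyve1, Pecam1 or Pdpn. Lyve1 (0.32) and Pecam1 (-0.64) did so without AD_B6 replicate 3, and Pecam1 with array weights (-0.29). Pdpn did so without SJL_B6 replicate 3 (-0.15) or AD_B6 replicate 1 (-0.10). Over single libraries left out, Lyve1 ran from -2.76 to 0.32, Pdpn from -0.15 to 0.51 and Pecam1 from -0.64 to 2.64. With every library thinned to the reads of the shallowest, the difference in detected genes was -1187.5 (adjusted p 0.0818).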

Other observations

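At 20 further genes AD_B6 did not overlap the 8 other libraries, 11 higher and 9 lower, while the means of SJL_B6 and AD_TG differed by 1 or more; these genes were chosen after their values were seen. Ftx, a long non-coding RNA of the X inactivation region, stood at 6.68, 3.93, 7.33 and 7.15 in AD_B6 1 to 4 and from 0 to 2.68 in the others. Lad1, an anchoring filament protein, stood at 7.91, 8.17, 6.84 and 4.07 against 0 to 3.35. Dpysl2, a cytoskeletal protein of growing axons, stood at 4.08, 3.22, 0 and 1.22 against 5.87 to 9.83. Klhl6, an adaptor of ubiquitin ligases in B cells, was listed at 0, 0, 0 and 0.03 against 1.34 to 8.57.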
